A study of Homo sapiens with 9 samples.

Results

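Transcripts of 7 immune checkpoint ligands were followed across RNA sequencing libraries of cultures labelled as the breast cancer cell line MDA-MB-231. The 7 genes, CD274, CD276, LGALS9, NECTIN2, PVR, CD47 and NT5E, were taken by symbol as surface or secreted molecules through which tumour cells restrain immune cells. All 7 were found among the 17911 genes in the table of read counts. The labels describe 9 samples of MDA-MB-231, an established human line from a triple-negative breast cancer, as 3 capsules, 3 small spheroids and 3 large spheroids. Spheroids are cell aggregates, here grown by liquid overlay. Every label, those of the capsules included, carries the same treatment: liquid overlay with 5% Matrigel, a basement membrane gel, after trastuzumab, an antibody against ERBB2. All samples shared RPMI medium with 10% serum, an incubation of 96 h, the cell type entry WT, TRIzol extraction and TruSeq libraries. The labels therefore name no untreated control. The labels do not say that replicates came from separate cultures, so the p-values below measure the spread between these libraries, which may be technical.

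Checkpoint ligands are read by inhibitory or activating receptors on T cells, natural killer (NK) cells and macrophages. PD-L1 (CD274) engages PD-1 on T cells and is induced by interferon gamma, nectins and PVR are shared between the inhibitory receptor TIGIT and the activating receptor CD226, and CD47 signals through SIRPA on phagocytes. CD73 (NT5E) acts differently, as an ectoenzyme that makes immunosuppressive adenosine, and both PD-L1 and CD73 are widely studied in triple-negative breast cancer. The labels describe cultures of tumour cells alone, so most receptors named here are background, and the few receptor genes tested are given with CD47.

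The 9 count columns fell into 3 sets of 3 by name. The first set names capsules, another carries L.O, read with the sample titles as liquid overlay, and the third carries Sph.WT. The last sets are called L.O and Sph.WT below, because no column name gives a spheroid size and small and large could not be assigned. Column names of the capsule and L.O sets hold MDA, whereas those of Sph.WT give no cell line and end in another form. Total counts were 13212665 to 13735221 in the libraries labelled capsule, 15525725 to 15988167 in L.O and 16605098 to 33263076 in Sph.WT. The cell line label was checked first, because the results turn on it. The summed level of 25 genes typical of MDA-MB-231, such as CD44, AXL and S100A4, was 8505 to 8839 CPM (counts per 1000000 counts of the library) in Sph.WT. It was only 886 to 945 CPM in the libraries labelled capsule and 1297 to 1333 CPM in L.O. The reverse held for 10 genes typical of HEK293, a human embryonic kidney line, with 2859 to 3104 CPM in the libraries labelled capsule, 2809 to 3214 CPM in L.O and 88.0 to 102 CPM in Sph.WT. Both lists were written with earlier results of these data known. CDKN2A, a cell cycle inhibitor gene typically deleted in MDA-MB-231, is 1 of these 10 genes and so part of their sum. It averaged 524, 556 and 0.716 CPM in the libraries labelled capsule, L.O and Sph.WT. These values in the libraries labelled capsule and in L.O go against the MDA-MB-231 label. Expression profile, form of the column name and Sph.WT membership change together, so a difference between Sph.WT and the other sets cannot be told apart from a difference in cell identity.

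Pooling all 6 spheroid columns against the 3 libraries labelled capsule, the comparison that the labels support, called 0 of the 7 ligands, where 3.76% of 16985 genes tested were called, 1.47% higher and 2.3% lower in spheroids (edgeR's quasi-likelihood test, Benjamini-Hochberg adjusted p under 0.05). At an unadjusted p under 0.05 the test counted 3 of the 7, namely CD274, NT5E and NECTIN2, beside 4929 of all 16985 genes tested. DESeq2 called the same 3 genes, all higher in spheroids, among 4023 calls over all genes, and limma-voom called 0 of the 7. Pooling joined unlike libraries: the common coefficient of variation between libraries of a group was 66.0% with L.O and Sph.WT pooled and 7.73% with the 3 sets kept apart. NECTIN2 came nearest to the threshold, with a log2 fold change of 0.95 ± 0.27 (SE, adjusted p = 0.0901 by edgeR's quasi-likelihood test). With library totals alone it was the 1 ligand called (log2 0.83, adjusted p = 0.0309). Without the L.O libraries 5 ligands were called higher and 1 lower, among 13909 calls over all genes. Without the Sph.WT libraries 2 ligands were called higher and 1 lower, among 7970 calls over all genes. The ligands are therefore described set by set, from 1 edgeR fit with 3 levels, whose comparisons share libraries.

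In that fit 5 of the 7 ligands were higher and 1 was lower in Sph.WT than in the libraries labelled capsule, beside 85% of all genes called (42% higher and 43% lower). Against L.O, 6 were higher and 1 lower in Sph.WT, beside 85.5% called (43.1% higher and 42.4% lower). Between L.O and the libraries labelled capsule, 2 were higher and 2 lower, beside 45.5% called (23% higher and 22.5% lower). Counted in either direction, these shares are near the background and say little about the ligands as a group. The median log2 fold change of the 7 was 2.34 for Sph.WT over L.O, 2.15 for Sph.WT over the libraries labelled capsule and 0.38 for L.O over them, with medians over all genes of 0.01, -0.03 and 0.02. These values depend on scaling by TMM, which assumes that most genes do not change. With library totals alone the all-gene medians moved to -0.45, -0.35 and 0.17. The split of genes called higher and lower then went from 7319 and 7202 to 5287 and 9349 for Sph.WT over L.O. It went from 7130 and 7312 to 5746 and 8742 for Sph.WT over the libraries labelled capsule, and from 3903 and 3829 to 5764 and 2216 for L.O over them.

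**Figure D1:**
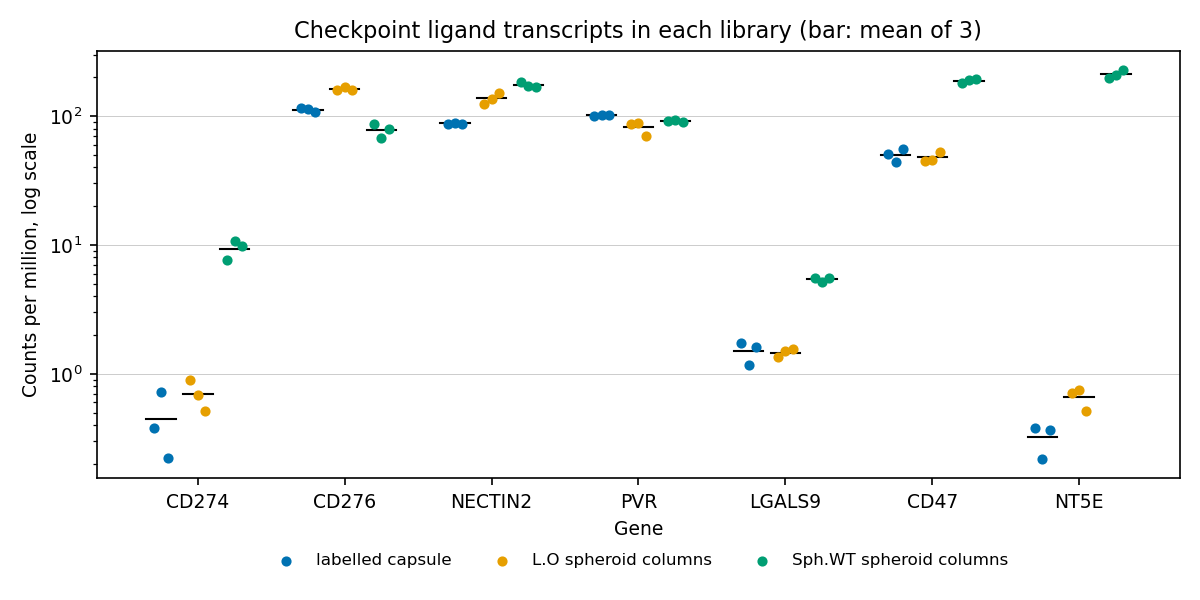
Level of each ligand in CPM (log axis) in the 9 libraries, with 1 point per library, colours for the 3 column sets and a bar at the mean of each set. NT5E lies at 198 to 227 CPM in Sph.WT and under 1 CPM elsewhere, whereas PVR stays between 70.1 and 102 CPM in all 9 libraries.

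CD274 (Entrez 29126), which encodes PD-L1, lies on the plus strand at chr9:5450542-5470554 in GRCh38. The 250 bases before its RefSeq start (GRCh38.p14, chr9:5450292-5450541) are shown because this ligand rose in Sph.WT and because the stretch carries the core of an interferon-stimulated response element. Capitals mark 2 overlapping matches to 2 copies of GAAA set 2 bases apart, read on the opposite strand, of which the first begins 208 bases before the start.
CD274: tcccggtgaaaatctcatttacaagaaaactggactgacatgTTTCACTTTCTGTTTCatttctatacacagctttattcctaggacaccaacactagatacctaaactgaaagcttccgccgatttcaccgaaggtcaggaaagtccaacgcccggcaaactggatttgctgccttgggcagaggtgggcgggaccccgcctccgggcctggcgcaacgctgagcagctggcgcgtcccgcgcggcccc
The motif was searched on both strands, and 3.02% of 35116 RefSeq promoters of the same length hold it. A gamma-activated sequence, TTCNNNGAA, begins 125 bases before the start and occurs in 6.57% of promoters. Of the 7 ligands, CD274 alone holds either motif in this window, and a match is a description of letters, not of binding.

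CD274 was scarce in the libraries labelled capsule, at 0.378, 0.728 and 0.221 CPM (5, 10 and 3 counts). In L.O it was at 0.896, 0.688 and 0.515 CPM (14, 11 and 8 counts). In Sph.WT it reached 7.60, 10.7 and 9.82 CPM (151, 356 and 163 counts). The 3 Sph.WT libraries were above all 6 others, while the remaining sets overlapped. The gene was 26.0-fold higher in Sph.WT than in the libraries labelled capsule, a log2 fold change of 4.70 ± 0.28 (SE; edgeR's quasi-likelihood test, adjusted p = 2.47e-13). Over L.O the log2 fold change was 4.20 ± 0.25 (adjusted p = 1.87e-13, same edgeR test). L.O and the libraries labelled capsule differed by 0.50 ± 0.46 on the log2 scale, which did not pass (edgeR adjusted p = 0.392). With 18 counts over all libraries labelled capsule and 33 over L.O, a difference of that size was not detectable at this depth.

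CD276 (Entrez 80381, chr15:73683944-73714514, plus strand) encodes B7-H3, a B7 family ligand common on carcinoma cells. It was the ligand with the opposite pattern. The libraries labelled capsule had 115, 113 and 107 CPM, L.O had 158, 167 and 159 CPM, and Sph.WT had 86.9, 67.0 and 79.0 CPM. In CPM no set overlapped another, with L.O highest and Sph.WT lowest, but after TMM scaling Sph.WT and the libraries labelled capsule overlapped. CD276 was 1.51-fold lower in Sph.WT than in L.O (log2 fold change -0.60 ± 0.08 SE, adjusted p = 3.84e-07 by edgeR's quasi-likelihood test). It was 1.30-fold higher in L.O than in the libraries labelled capsule (log2 0.38 ± 0.08, edgeR adjusted p = 5.84e-04). The drop from the libraries labelled capsule to Sph.WT was small, at -0.22 ± 0.08 (edgeR adjusted p = 0.0174), and its call ended without capsule library 1 (adjusted p = 0.0725) or without Sph.WT library 2 (adjusted p = 0.146). Scaled by library totals alone, the 2 differences for Sph.WT widened to -1.06 against L.O and -0.53 against the libraries labelled capsule. Both RefSeq promoters of CD276 are rich in GC, at 80.8% and 77.2%, against a median of 58.0% over all promoters.

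LGALS9 (Entrez 3965, chr17:27631188-27649560, plus strand) encodes galectin-9, a lectin that binds TIM-3 on T cells. The libraries labelled capsule had 1.74, 1.16 and 1.62 CPM, from 16 to 23 counts each. L.O had 1.34 to 1.55 CPM, from 21, 24 and 24 counts, and Sph.WT had 5.54, 5.20 and 5.54 CPM. Sph.WT stood above the other sets, which overlapped. The rise was 5.08-fold over L.O (log2 2.34 ± 0.20 SE, adjusted p = 1.40e-10 by edgeR's quasi-likelihood test) and 4.45-fold over the libraries labelled capsule (log2 2.15 ± 0.20, edgeR adjusted p = 1.08e-09). L.O against the libraries labelled capsule gave -0.19 ± 0.26 (edgeR adjusted p = 0.573). LGALS9 has near-identical copies, LGALS9B and LGALS9C, which were not analysed here, and an annotated gene on the same strand overlaps it, so its counts are uncertain. Its promoter window, at 51.6% GC, held none of the motifs searched.

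The summed level of immune cell markers was highest in Sph.WT and lowest in the libraries labelled capsule. Its members went both ways, with 4 called higher and 5 lower in Sph.WT than in L.O (3 and 5 with library totals alone). The summed level of the 9 markers analysed of a list of 16 was 23.7 to 24.2 CPM in the libraries labelled capsule, 49.2 to 52.4 CPM in L.O and 141 to 159 CPM in Sph.WT. In Sph.WT the sum came mostly from CD68 at 90.4 CPM, a lysosomal protein gene also expressed outside macrophages, and CD14 at 45.7 CPM. PTPRC, the pan-leukocyte marker on that list, had no row under its symbol in the table of read counts. The lowest total of any row there was 20 counts over the 9 libraries. The 9 fibroblast markers analysed of a list of 10 summed to 46.8 to 50.8, 104 to 116 and 179 to 205 CPM in the libraries labelled capsule, L.O and Sph.WT. Of the 7 tested, 3 were higher and 2 lower in Sph.WT than in L.O (3 and 3 with library totals alone). COL1A2 alone gave 148 CPM in Sph.WT, while COL1A1 fell from 86.3 CPM in L.O to 13.2 CPM and PDGFRA from 2.53 to 0.151 CPM. The 4 endothelial markers analysed of a list of 8 summed to 2.13 to 2.65, 3.14 to 4.19 and 6.08 to 10.4 CPM in the same order, with 2 of 3 tested higher and CLDN5 lower in Sph.WT than in L.O. The part of other cells in the ligand levels was not tested. In bulk RNA, fewer cells of a type and less RNA per cell cannot be told apart.

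NECTIN2 and PVR encode related immunoglobulin-like adhesion molecules, CD112 and CD155, and lie near each other on chromosome 19. NECTIN2 (Entrez 5819, chr19:44846297-44889223, plus strand) binds the inhibitory receptors PVRIG and TIGIT. It had 87.1, 88.8 and 87.5 CPM in the libraries labelled capsule, 124, 137 and 151 CPM in L.O and 185, 170.4 and 168 CPM in Sph.WT. The sets stood in the same order in every library, with no overlap. L.O exceeded the libraries labelled capsule 1.41-fold (log2 0.49 ± 0.08 SE, adjusted p = 2.89e-05, edgeR's quasi-likelihood test). Sph.WT exceeded them 2.47-fold (log2 1.30 ± 0.08, edgeR adjusted p = 2.71e-13). Sph.WT exceeded L.O 1.76-fold (log2 0.81 ± 0.08, edgeR adjusted p = 1.03e-09), a difference that shrank to 0.35 with library totals alone. An antisense gene, AC011481.2, overlaps NECTIN2, and without a stated strand setting its reads cannot be told apart from those of NECTIN2.

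PVR (Entrez 5817, chr19:44643910-44666162, plus strand) is a high-affinity ligand of TIGIT and CD226. The libraries labelled capsule had 101, 101 and 102 CPM, L.O had 86.8, 87.9 and 70.1 CPM, and Sph.WT had 91.5, 93.2 and 90.7 CPM. L.O was below the other sets in each library, and L.O library 3 stood apart from its group. PVR fell by 0.46 ± 0.08 on the log2 scale from the libraries labelled capsule to L.O (adjusted p = 1.11e-04, edgeR's quasi-likelihood test). It was 1.55-fold higher in Sph.WT than in L.O (log2 0.63 ± 0.08, edgeR adjusted p = 2.16e-07), but the difference was 0.17 with library totals alone and then did not pass (adjusted p = 0.0528). Sph.WT against the libraries labelled capsule gave 0.17 ± 0.08, short of the threshold (edgeR adjusted p = 0.0578). That value became -0.14 with library totals, and in plain CPM all 3 Sph.WT libraries were below those labelled capsule. Without L.O library 3 it was called higher (log2 0.17, adjusted p = 0.0249). CEACAM19 overlaps PVR on the same strand, so reads in the shared stretch cannot be assigned with certainty.

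Per kilobase of the principal transcript, NECTIN2 exceeded PVR by a ratio of 1.36 ± 0.0170 (SD, n = 3) in the libraries labelled capsule. The ratio was 2.69 ± 0.613 in L.O and 2.99 ± 0.171 in Sph.WT. Its range did not overlap between the libraries labelled capsule and the others, and overlapped between L.O and Sph.WT. The 2 spheroid sets were thus both above the libraries labelled capsule in this ratio.

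CD47 (Entrez 961, chr3:108043091-108091031, minus strand) encodes the signal that keeps phagocytes from engulfing a cell. Its promoter is shown for contrast with that of CD274: in 250 bases on the minus strand (GRCh38.p14, chr3:108091032-108091281) it has 79.6% GC. Capitals mark its 6 matches to the GC box GGGCGG on either strand, of which the first 2 overlap.
CD47: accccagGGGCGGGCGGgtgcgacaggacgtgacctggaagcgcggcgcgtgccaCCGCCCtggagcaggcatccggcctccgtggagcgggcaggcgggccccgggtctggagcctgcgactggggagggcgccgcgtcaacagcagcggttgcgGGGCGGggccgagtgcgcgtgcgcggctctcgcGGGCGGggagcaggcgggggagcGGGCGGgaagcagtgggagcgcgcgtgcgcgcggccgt
The GC box occurs in 42.6% of promoters. CD274 has 1 match in its window, the 2 promoters of CD276 have 7 and 2, NT5E has 2, NECTIN2 has 3 and PVR and LGALS9 have 0. The windows of NT5E, NECTIN2 and PVR have 75.2%, 67.6% and 70.0% GC.

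CD47 had 51.0, 44.4 and 55.2 CPM in the libraries labelled capsule and 44.9, 45.7 and 52.8 CPM in L.O. In Sph.WT it had 182, 189 and 195 CPM. Sph.WT was higher than every other library, and the remaining sets overlapped. CD47 rose 5.45-fold over L.O (log2 2.45 ± 0.09 SE, adjusted p = 1.03e-17, edgeR's quasi-likelihood test) and 4.67-fold over the libraries labelled capsule (log2 2.22 ± 0.09, edgeR adjusted p = 6.25e-17). L.O was lower than the libraries labelled capsule by a log2 fold change of -0.22 ± 0.09 (edgeR adjusted p = 0.0437). That call was lost in 9 of 16 alternative settings, among them library totals alone (-0.07, adjusted p = 0.527), DESeq2 (adjusted p = 0.109) and limma-voom (adjusted p = 0.0536). It was also lost without capsule library 1 (adjusted p = 0.120) or 3 (0.190), and without L.O library 1 (0.134) or 2 (0.156).

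NT5E (Entrez 4907, chr6:85450083-85495784, plus strand) encodes CD73, which converts extracellular AMP to adenosine. Its promoter is shown because the gene had the widest difference between sets of the 7. In the 250 bases before the start (GRCh38.p14, chr6:85449833-85450082) capitals mark the short cyclic AMP response element TGACGT, 127 bases before the start, which 7.10% of promoters hold on either strand.
NT5E: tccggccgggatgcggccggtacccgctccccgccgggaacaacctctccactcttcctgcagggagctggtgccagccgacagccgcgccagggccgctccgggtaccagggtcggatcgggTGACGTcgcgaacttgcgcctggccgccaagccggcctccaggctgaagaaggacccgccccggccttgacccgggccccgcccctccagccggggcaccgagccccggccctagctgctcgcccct
The full palindrome TGACGTCA was not found in this window.

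NT5E was scarce in the libraries labelled capsule, at 0.378, 0.218 and 0.368 CPM (5, 3 and 5 counts). L.O had 0.704, 0.751 and 0.515 CPM (11, 12 and 8 counts). Sph.WT had 198, 208 and 227 CPM (3935, 6935 and 3771 counts). Sph.WT was far above the other sets, and L.O was above the libraries labelled capsule in every library. The fitted rise was 437-fold over L.O (log2 8.77 ± 0.13 SE, adjusted p = 1.04e-23, edgeR's quasi-likelihood test). Over the libraries labelled capsule it was 799-fold (log2 9.64 ± 0.15, edgeR adjusted p = 1.40e-23). The smaller difference of L.O over the libraries labelled capsule, 0.87 ± 0.40 on the log2 scale, did not pass (edgeR adjusted p = 0.102), and it rests on 31 and 13 counts in all. Among genes in the table NT5E stood at percentile 7.38 by CPM in the libraries labelled capsule, 9.78 in L.O and 95.5 in Sph.WT.

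**Figure D2:**
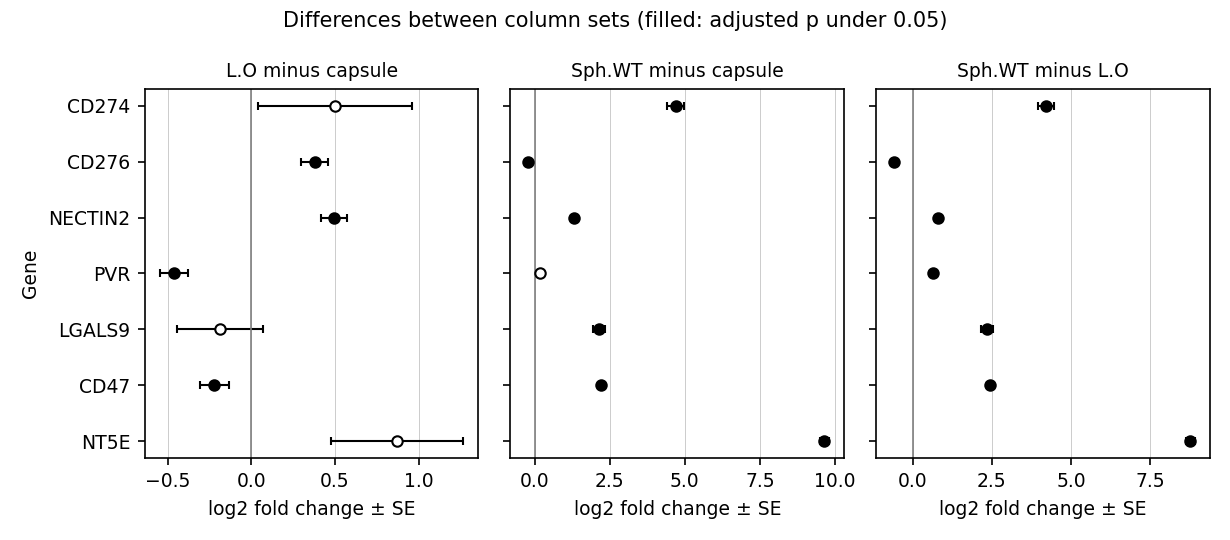
Fitted log2 fold change with its SE for the 7 ligands in the 3 comparisons of column sets, filled where the adjusted p is under 0.05. The axes differ between panels: between L.O and the libraries labelled capsule the values run from -0.46 to 0.87, while for Sph.WT over L.O they run from -0.60 for CD276 to 8.77 for NT5E.

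The order of the ligands differed between sets when levels were divided by transcript length. In the libraries labelled capsule NECTIN2 led at 41.6 ± 0.429 CPM per kilobase (SD, n = 3), with CD47 at 39.1 ± 4.22, and their ranges overlapped. CD276 at 32.2 ± 1.15 and PVR at 30.5 ± 0.150 followed. LGALS9 at 0.484 ± 0.0974, CD274 at 0.121 ± 0.0713 and NT5E at 0.0906 ± 0.0252 CPM per kilobase were far lower, and the last pair overlapped. In L.O the order was NECTIN2 at 64.9 ± 6.45, CD276 at 46.5 ± 1.43, CD47 at 37.2 ± 3.38 and PVR at 24.5 ± 3.00, with no overlap between neighbours. LGALS9, CD274 and NT5E again came last, and the last pair overlapped. In Sph.WT CD47 led at 146.9 ± 5.30, before NECTIN2 at 82.6 ± 4.50 and NT5E at 59.5 ± 4.15 CPM per kilobase. PVR at 27.6 ± 0.380, CD276 at 22.4 ± 2.88, CD274 at 2.57 ± 0.439 and LGALS9 at 1.74 ± 0.0625 followed, with no overlap between any neighbours. These places depend on the length used. The principal transcript of CD47 has 1285 bases and its joined exons 8225, and with the latter its rank in Sph.WT was 4. With joined exons PVR led in the libraries labelled capsule, at 28.8 ± 0.141 CPM per kilobase. In Sph.WT NT5E and NECTIN2 then stood level at the top, at 46.6 ± 3.25 and 46.6 ± 2.54 CPM per kilobase. The summed level of the 7 was 353 ± 3.74, 430.4 ± 12.3 and 759 ± 15.4 CPM in the libraries labelled capsule, L.O and Sph.WT.

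**Figure D3:**
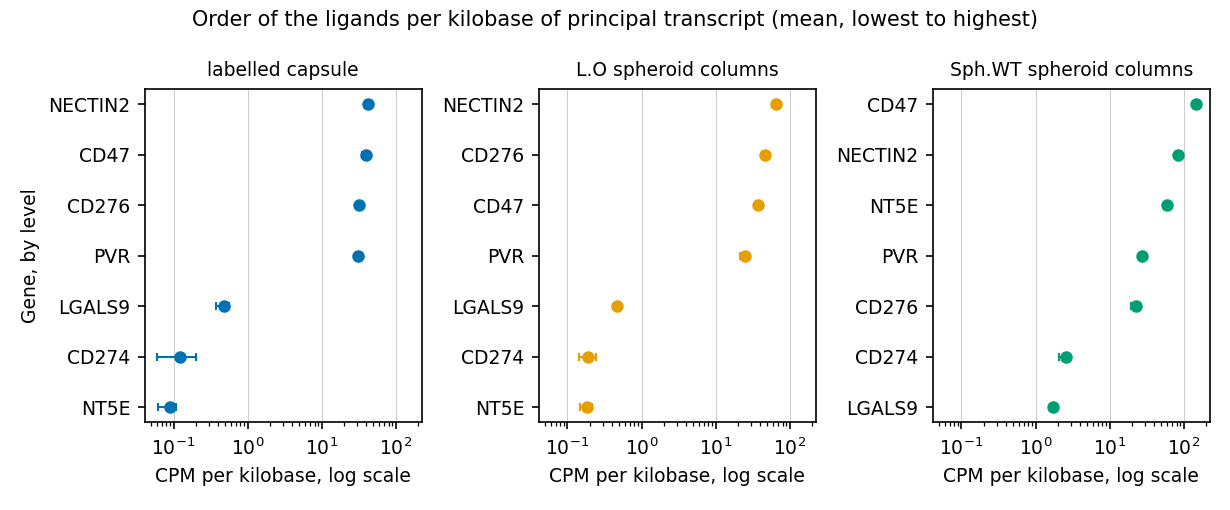
Levels per kilobase of principal transcript (log axis), ordered within each column set, with points at the mean of 3 libraries and bars from the lowest to the highest. NT5E moves from last at 0.0906 in the libraries labelled capsule to the third place at 59.5 in Sph.WT, and CD276 from 32.2 to 22.4.

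Relatives of the ligands were examined in the same edgeR fit, at the same threshold, and were read against the background shares given above for each comparison. Because the scaling shifts all genes, list counts are given again with library totals alone where they differed. Of 10 other B7 and butyrophilin genes tested, 9 were higher and 1 lower in Sph.WT than in L.O, with a median log2 fold change of 2.37. PDCD1LG2, which encodes PD-L2 and lies beside CD274, had 0 counts in the libraries labelled capsule and 2.92 ± 0.841 CPM (SD, n = 3) in Sph.WT, at least 13.2-fold higher (floor of 3 counts per library). BTN3A2, a butyrophilin sensed by gamma delta T cells, rose by 3.10 ± 0.11 (SE) over 15.2 CPM in L.O, and VSIR, which encodes VISTA, rose by 3.94 ± 0.16. NCR3LG1, which encodes the NK cell ligand B7-H6, was the exception and fell by 4.67 ± 0.14, from 80.5 CPM in L.O to 2.23 CPM in Sph.WT. Between L.O and the libraries labelled capsule 1 of the 10 was higher, VSIR, and 2 were lower, NCR3LG1 and BTN3A2. With library totals alone 6 were higher and 2 lower in Sph.WT than in L.O, with BTN2A2 turning from 0.27 to -0.19, and 3 were higher and 0 lower in L.O than in the libraries labelled capsule.

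The nectin relatives of NECTIN2 and PVR mostly went the other way. Of 4 tested, NECTIN3 was higher in Sph.WT than in L.O (log2 1.84 ± 0.09 SE), while NECTIN1, NECTIN4 and CADM1 were lower. CADM1, a nectin-like adhesion molecule, fell by 5.76 ± 0.13, from 70.7 to 0.944 CPM. Against the libraries labelled capsule L.O had NECTIN4 higher (1.56 ± 0.24) and NECTIN3 lower. With library totals alone 3 were higher and 0 lower, with NECTIN3 at -0.10. All 3 other galectins tested were higher in Sph.WT, as LGALS9 was. LGALS1 is also among the 25 genes typical of MDA-MB-231 summed above. LGALS1 went from 115 to 288 CPM, LGALS8 from 13.1 to 82.8 CPM between L.O and Sph.WT, and LGALS3 differed by 3.75 ± 0.10 on the log2 scale. In L.O against the libraries labelled capsule, LGALS1 and LGALS3 were higher (1.77 ± 0.13 and 0.61 ± 0.12) and LGALS8 lower, which did not pass with library totals alone (-0.20).

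Other ligands read by T and NK cells moved in both directions. Of 5 other inhibitory ligands, HLA-E, the ligand of NKG2A, and TNFRSF14, the ligand of BTLA, were higher in Sph.WT than in L.O (3.08 ± 0.10 and 4.26 ± 0.16 on the log2 scale). CD24 and CLEC2D were lower. Of 4 costimulatory genes of the TNF and TNF receptor families 3 were higher and CD70 was lower, at 12.6 CPM in L.O and 0.131 CPM in Sph.WT. Of 7 NK activating ligands tested 4 were higher and 2 lower. ICAM1, the adhesion partner of LFA-1, went from 2.86 to 275 CPM and CD58, the ligand of CD2, from 5.29 to 94.2 CPM. ULBP1 and ULBP3, ligands of NKG2D, were lower in Sph.WT. With library totals alone 3 of the 7 were lower.

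Around NT5E, 9 of the 13 tested genes of adenosine and purine handling were higher and 3 lower in Sph.WT than in L.O, with a median of 0.97 (7 higher and 3 lower with library totals alone). ENTPD1, the ectoenzyme CD39 that supplies AMP to CD73, went the opposite way from NT5E, at 68.1, 52.8 and 17.8 CPM in the libraries labelled capsule, L.O and Sph.WT. Per kilobase, the ratio of NT5E to ENTPD1 was 0.00269 ± 0.000652, 0.00713 ± 0.00132 and 6.89 ± 1.28 (SD, n = 3) in the same order, with no overlap. ADA, which degrades adenosine, fell by 2.63 ± 0.14 (SE) from L.O to Sph.WT. DPP4, which anchors ADA at the cell surface, rose by 2.78 ± 0.14, and the transporter SLC29A1 rose by 1.70 ± 0.08. The adenosine receptor gene ADORA2B rose by 2.46 ± 0.11, from 13.3 to 53.0 CPM. Between L.O and the libraries labelled capsule 1 of the 13 was higher, ADORA1, and 5 were lower (3 and 2 with library totals alone), among them ENTPD1 (-0.52 ± 0.09) and the adenosine kinase ADK (-0.82 ± 0.09).

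Around CD47, 4 of 5 genes for modifying enzymes and partners were higher in Sph.WT than in L.O and 1 lower, or 2 higher and 1 lower with library totals alone. THBS1, which encodes the CD47 ligand thrombospondin-1, went from 2.12 to 1133 CPM (log2 9.52 ± 0.12 SE). CALR, an opposing signal for engulfment at the cell surface, rose by 1.10 ± 0.07. QPCTL, the Golgi enzyme that modifies CD47 for SIRPA binding, rose by 0.38 ± 0.11, which turned to -0.08 with library totals alone, while its secreted relative QPCT fell by 2.42 ± 0.13. SIRPA itself was read at 11.0, 14.5 and 2.89 CPM in the libraries labelled capsule, L.O and Sph.WT. Of 4 receptor genes of immune cells tested 1 was higher in Sph.WT than in L.O, TNFRSF9, and 2 were lower, SIRPA and LAG3 (3 lower with library totals alone).

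Around CD274, 14 of 15 genes of interferon gamma signalling and PD-L1 transcription were higher in Sph.WT than in L.O, with a median of 1.18 (12 higher and 1 lower with library totals alone). IRF1, the factor that binds interferon response elements, went from 15.8 to 50.1 CPM (log2 2.13 ± 0.10 SE), STAT3 rose by 1.26 ± 0.07 and HIF1A rose by 3.37 ± 0.10. L.O against the libraries labelled capsule had 6 of the 15 higher, with STAT2 at 0.80 ± 0.09, and 3 lower, with MYC at -0.90 ± 0.08. Of 9 partners of PD-L1 protein turnover 3 were higher and 2 lower in Sph.WT than in L.O, or 2 higher and 6 lower with library totals alone. CMTM6, which protects PD-L1 from degradation, rose by 1.45 ± 0.07 from 90.7 to 180.0 CPM, and the glycosylation enzyme STT3A rose by 1.03 ± 0.07. Of 8 genes beside CD274 on chromosome 9p24 tested 4 were higher and 2 lower, with a median of 0.14, or 2 higher and 5 lower with library totals alone. PDCD1LG2 was among the higher genes, with 1 count over L.O and 218 over Sph.WT, and its fitted log2 fold change of 7.13 ± 0.59 depends on the prior count. JAK2 rose by 0.95 ± 0.17 and RCL1 fell by 0.94 ± 0.13. PDCD1LG2 and JAK2 stand in lists above as well.

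**Figure D4:**
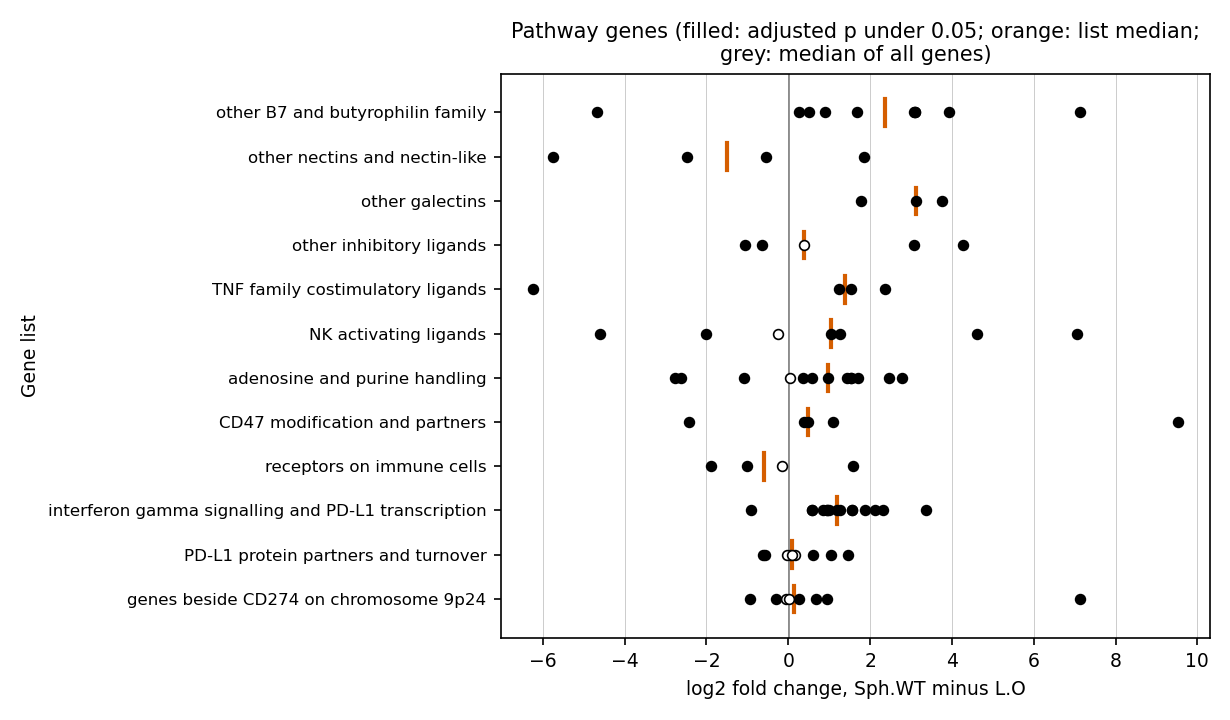
Fitted log2 fold change of Sph.WT over L.O for the tested genes of 12 lists around the ligands, filled where the adjusted p is under 0.05, with an orange mark at each list's median and a grey line at the all-gene median of 0.01. The list medians run from -1.51 for nectins to 3.12 for galectins.

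The genes whose levels across the 9 libraries were most like each ligand were ranked by Pearson's r of log2(CPM + 0.5) over 12462 genes with a mean of at least 5 CPM. These r values describe 9 libraries that share sets and depth, and Sph.WT stands apart from the other sets in many genes. For CD274 they were NFATC2, EGFR and VCL (r = 0.997, 0.996 and 0.995), among 2080 genes above 0.95. For NT5E they were CYP1B1, CASP4 and PAM, among 2325, for CD47 PLEKHF2, SPPL2A and EHF, among 2099, and for LGALS9 PROS1, VSIG10 and PNPLA4, among 2012. CD276 was most like PPOX and SELENBP1, among 573, and NECTIN2 most like ATG2A, ANO8 and BASP1, among 294. PVR had no gene above 0.95, and SEC61A1 and CAPRIN1 came nearest (r = 0.949 and 0.937).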

How the data were processed

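The authors deposited raw, whole-number read counts for 17911 Entrez genes in 9 columns. The genome build hg38 and the tools featureCounts and limma are named in the submitters' processing notes, without versions. How reads were aligned, which annotation served and how strand was handled is not given in the sources used here. Rows without a symbol numbered 237 and held 0.0742% of counts. Columns were matched to groups by name: 3 capsule columns to their samples, and 6 columns to the spheroid group without a size.

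Counts were tested with edgeR 4.0.16 in R 4.3.3 (quasi-likelihood test, TMM, filterByExpr, Benjamini-Hochberg adjustment over 16985 genes, threshold 0.05). The first fit had 2 levels, capsule and spheroid, and the second had 3, the sets of column names. Alternatives were DESeq2 1.42.0, limma-voom 3.58.1, other scalings, no filter and leaving out libraries. On simulated counts the fit with 3 levels was tested and recovered the larger changes. The simulation changed few genes, evenly up and down, so it cannot test the scaling where most genes differ, as here.

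CPM was counts divided by the library total. Transcript lengths, strands and overlaps came from GENCODE release 29, and gene coordinates from RefSeq. Promoters came from RefSeq (GRCh38.p14), where 7 of 7 ligands matched. Other steps used Python 3.11.15, pandas 2.3.3, numpy 2.4.6 and matplotlib 3.10.9. A count of 0 allows up to 3 counts, a floor that covers counting error only, because these reads carry no molecular identifiers. No pair of libraries of a set agreed within sampling noise.

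The ligands and gene lists were chosen with earlier results of these data known. Named genes were the 7 ligands, for every other list the 3 most abundant members and the 2 with the largest change among those called, the 3 genes most like each ligand, and genes on which a pathway step turned. Some genes that this rule names are not reported here.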

Additional observations from a re-analysis of the deposited data

Results flagged for a closer look

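For 4 ligands the fitted effects of L.O and of Sph.WT against the libraries labelled capsule had opposite signs, and the difference between them was tested in the same edgeR quasi-likelihood fit. The difference, Sph.WT minus L.O on the log2 scale, was -0.60 for CD276, 2.45 for CD47, 0.63 for PVR and 2.34 for LGALS9. This is the comparison of Sph.WT with L.O already given for each gene, not a further test. In it all 4 passed, with edgeR adjusted p-values between 1.03e-17 and 3.84e-07, beside 85.5% of all genes called. The 4 were picked for their opposite signs, which favours a difference. The separate effects of L.O on LGALS9 and of Sph.WT on PVR did not pass. Those of L.O on CD47 and of Sph.WT on CD276 passed, but kept their calls in 7 and 14 of 16 alternative settings. For PVR the sign of the Sph.WT effect turned with library totals alone, and the difference then missed the threshold.

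PVR in L.O library 3, at 70.1 CPM, stood apart from the other 5 spheroid libraries, which lay between 86.8 and 93.2 CPM. Its gap was 0.725 of the group's whole range, above Dixon's critical value for 6 samples. Chance flags about 1 group in 20 where all libraries of the group are alike. These 6 libraries join L.O and Sph.WT, between which PVR differed, so that rate does not carry over to them. Without that library PVR was still called lower in L.O than in the libraries labelled capsule.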

How the results depend on the processing

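Among the comparisons of column sets, the calls of CD274, NT5E, NECTIN2 and LGALS9 kept their direction and their side of the threshold in every alternative run, and those that did not, for CD276, PVR and CD47, are given with these genes above. The pooled comparison was unstable: its 639 calls (249 higher, 390 lower) became 359 (260 higher, 99 lower) with library totals alone and 4023 with DESeq2, and ranged from 0 to 604 when 1 library was left out. It gave 0 calls without capsule library 1, 2 or 3, 287 without L.O library 2 and 409 without L.O library 3. Without Sph.WT library 1, 2 or 3 it gave 154, 240 and 207. With 3 levels it gave 12643 calls. In settings chosen after seeing the data it gave 13909 without the L.O libraries and 7970 without the Sph.WT libraries, and the pooled value of CD276 turned from 0.11 to -0.25 without the L.O libraries. Pooled values that were called in neither setting also changed sign: PVR went from -0.11 to 0.13 without the L.O libraries, and CD47 from 1.47 to -0.22 and LGALS9 from 1.41 to -0.19 without the Sph.WT libraries. The cause was not tested.

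Replicate numbers did not pair the samples: deviations of 9 same-numbered pairs correlated at -0.271 to 0.115, with 1 pair over 0.1. With a replicate block the pooled comparison gave 0 calls, and the column set comparisons gave 7134, 14243 and 14350 in place of 7732, 14442 and 14521.

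CPM by TMM effective library size moved these means by more than their SD. In the libraries labelled capsule CD276, NECTIN2 and PVR came to 107.6, 84.6 and 97.6. In L.O CD276, CD47, NECTIN2, PVR and LGALS9 came to 139.9, 41.4, 119.0, 70.8 and 1.27. In Sph.WT CD274, CD276, CD47, NT5E, NECTIN2, PVR and LGALS9 came to 11.2, 92.7, 225.8, 252.6, 208.8, 109.8 and 6.49. Rank by CPM also differed from rank per kilobase. Per kilobase of principal transcript the ranks of CD276, CD47, NECTIN2 and PVR were 3, 2, 1 and 4 in the libraries labelled capsule and 2, 3, 1 and 4 in L.O. In Sph.WT those of CD47, NT5E and NECTIN2 were 1, 3 and 2. Per kilobase of joined exons, chosen after seeing the data, CD276, NECTIN2 and PVR ranked 3, 2 and 1 in the libraries labelled capsule, CD276 and NECTIN2 ranked 2 and 1 in L.O, and CD47, NECTIN2 and PVR ranked 4, 2 and 3 in Sph.WT.

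Depth limits CD274, NT5E and LGALS9 outside Sph.WT, where libraries held 3 to 24 counts of each. Fitted alone on L.O and the libraries labelled capsule, NT5E did not pass the filter on low counts.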
